A study of Mus musculus with 2 samples.

Results

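The 9 genes described here are the histone variant genes H2afz, H2afv, H2afx, H2afy, H2afj, H3f3a, H3f3b, H1f0 and Cenpa, which lie singly in the genome, outside the histone gene clusters. They were found by gene name in a deposited table of 24034 genes, where each name matched 1 row. The cells were RAW264.7, an established macrophage-like line of mouse labelled monocyte/macrophage and grown in DMEM with fetal bovine serum. Poly(A) RNA was sequenced as paired ends in 2 libraries, 1 from cells given SFRS8 siRNA and 1 from cells given a negative control. Both sample titles bear a 5 d mark, whose starting point is not explained in the labels, and the title of the control reads WT. SFRS8 is a former name of Sfswap, which encodes a regulator of alternative splicing. With a single library for each treatment, no difference has a replicate check, no p-value was computed, and every comparison is between these 2 libraries.

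Most histone protein is made in S phase from clustered genes whose mRNAs end in a stem-loop and carry no poly(A) tail. Replacement variants are made outside S phase as well, mostly from polyadenylated mRNAs, and enter chromatin without DNA replication. H2A.Z (from H2afz and H2afv) marks promoters, H2A.X (H2afx) is phosphorylated beside DNA breaks, macroH2A1 (H2afy) carries a large additional domain and is common in silent chromatin, and H2A.J (H2afj) has been linked to senescence in human fibroblasts. H3.3 (H3f3a and H3f3b) fills active genes and telomeres, H1f0 encodes a linker histone that accumulates in cells that have stopped dividing, and CENP-A (Cenpa) replaces H3 at centromeres.

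The paralogs can be told apart by their coding sequences, although each pair makes the same or nearly the same protein. The first 120 bases of each coding sequence (GENCODE vM21 transcripts) are shown to make this visible, with capitals at the bases that differ between the members of a pair.
H3f3a: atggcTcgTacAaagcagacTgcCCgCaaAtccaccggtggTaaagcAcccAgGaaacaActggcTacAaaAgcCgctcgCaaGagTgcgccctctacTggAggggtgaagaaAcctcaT
H3f3b: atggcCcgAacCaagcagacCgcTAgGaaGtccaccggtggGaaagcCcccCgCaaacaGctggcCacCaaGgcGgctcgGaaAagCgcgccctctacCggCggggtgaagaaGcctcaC
H2afz: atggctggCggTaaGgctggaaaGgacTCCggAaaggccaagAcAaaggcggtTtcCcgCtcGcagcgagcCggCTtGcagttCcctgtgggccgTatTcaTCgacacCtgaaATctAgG
H2afv: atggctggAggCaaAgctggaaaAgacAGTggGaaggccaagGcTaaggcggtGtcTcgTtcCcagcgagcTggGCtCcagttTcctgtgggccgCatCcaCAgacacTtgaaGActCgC
Over the whole coding sequence of 411 bases, H3f3a and H3f3b were identical at 316 bases (76.9%), and their longest identical run was 23 bases. H2afz and H2afv were identical at 306 of 387 bases (79.1%), with a longest run of 14 bases. The processed copy H3f3c, which GENCODE annotates as a pseudogene, was identical to H3f3a at 407 of 411 bases, with a run of 267 bases, so reads of H3f3a and of its copies are harder to separate than those of H3f3a and H3f3b.

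Estimated counts came to 55411201 in the siRNA-labelled library and 54847367 in the control, and 1 read pair was taken as 4 counts for every counting interval. This is an inference from 45.1% and 42.7% of counts from 1 to 20 being multiples of 4, and the origin of the unit is unknown. Sfswap, the named target, stood at 3.38 FPKM (fragments per kilobase of exon, scaled to library size) in the siRNA-labelled library and 2.92 FPKM in the control, so the library labelled SFRS8 siRNA showed no lower level of its target. Macrophage markers were present in both libraries, with 9 of 10 at or above 1 FPKM in each, and Fcgr3 below it, and 5 of the 10 had more FPKM with the siRNA label than in the control. The sums, 1303031 against 1430689 counts, were mostly those of Lyz2 (1129859 against 1251570). All 12 heart muscle markers were higher in the siRNA-labelled library, with 12886 against 415 summed counts and Actc1, Myl2, Myl3, Myl7 and Nppa at 0 in the control. Red blood cell markers held 423 against 6 counts and fibroblast markers 323 against 16. Of the 6 fibroblast markers 4 were higher with the siRNA label, Pdgfra had 11 against 12 counts and Lum 0 in both. The highest fibroblast marker stood at 0.25 FPKM, so none reached 1 FPKM in either library. Whether RNA of such other cells takes part in any difference below was not tested, and in bulk RNA a change in the number of cells of a type cannot be told apart from a change in RNA per cell.

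All 9 variant genes were well expressed, from about 12 to 180 FPKM, and their order was the same in both libraries. H2afz was the highest, followed by H2afj, H1f0, H3f3b, H3f3a, H2afv, H2afx, H2afy and Cenpa. Together the 9 genes took 0.191% of all counts in the siRNA-labelled library and 0.163% in the control. In the siRNA-labelled library the 95% Poisson counting intervals of all 8 neighbouring pairs in this order were separate. In the control library 7 pairs were separate, and the intervals of H2afy (12.4 to 13.8 FPKM) and Cenpa (11.5 to 13 FPKM) overlapped.

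**Figure D1:**
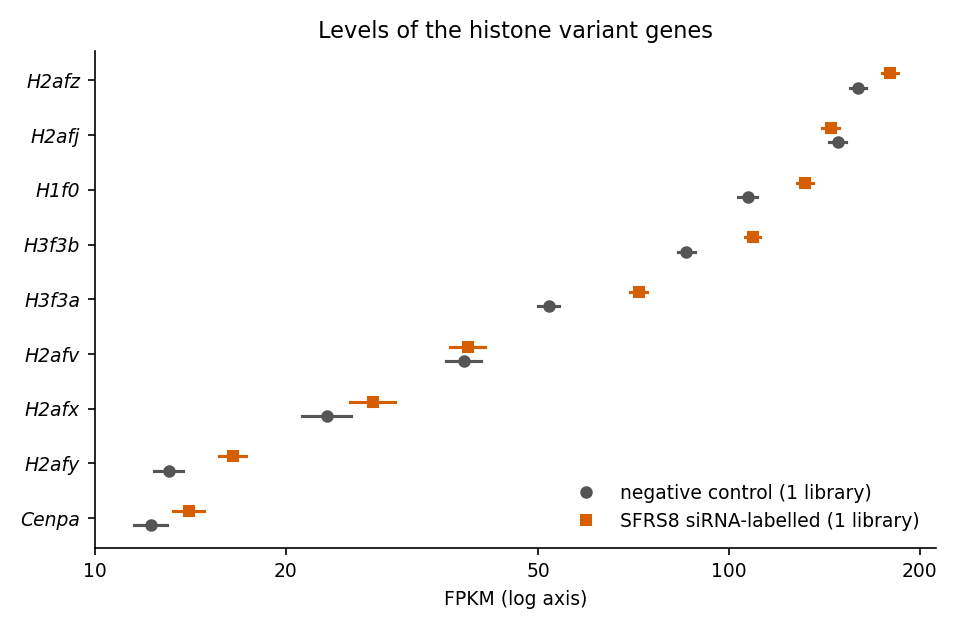
FPKM of the 9 histone variant genes on a log axis, in the negative control library (circles) and the SFRS8 siRNA-labelled library (squares), 1 library each; bars are 95% Poisson counting intervals and hold no replicate error. The siRNA-labelled library lies to the right for 8 genes, and to the left for H2afj, at 145 against 148 FPKM.

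The deposited FPKM divide the counts by the length of all annotated exons of a gene together, and the order of the lowest genes depended on that length. Lengths worked back from counts and FPKM were within 1% of the GENCODE vM21 exon union for 99.5% of 8621 genes with more than 400 control counts. For Cenpa the union is 5860 nt while its longest protein-coding transcript is 1466 nt, and for H2afy the values are 6809 and 2046 nt, and for both genes transcripts with retained introns are annotated. Per length of the longest protein-coding transcript, a scale in the units of FPKM that was chosen after the values were seen, Cenpa stood at 56.2 in the siRNA-labelled library and 49.0 in the control, and H2afy at 54.9 and 43.5. On that scale both were above H2afv (38.7 and 38.1) and H2afx (27.4 and 23.2), in places 6 and 7 in both libraries. H2afz, H2afj, H1f0, H3f3b and H3f3a kept places 1 to 5. The ratio of counts between the libraries for a single gene does not depend on the length.

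**Figure D2:**
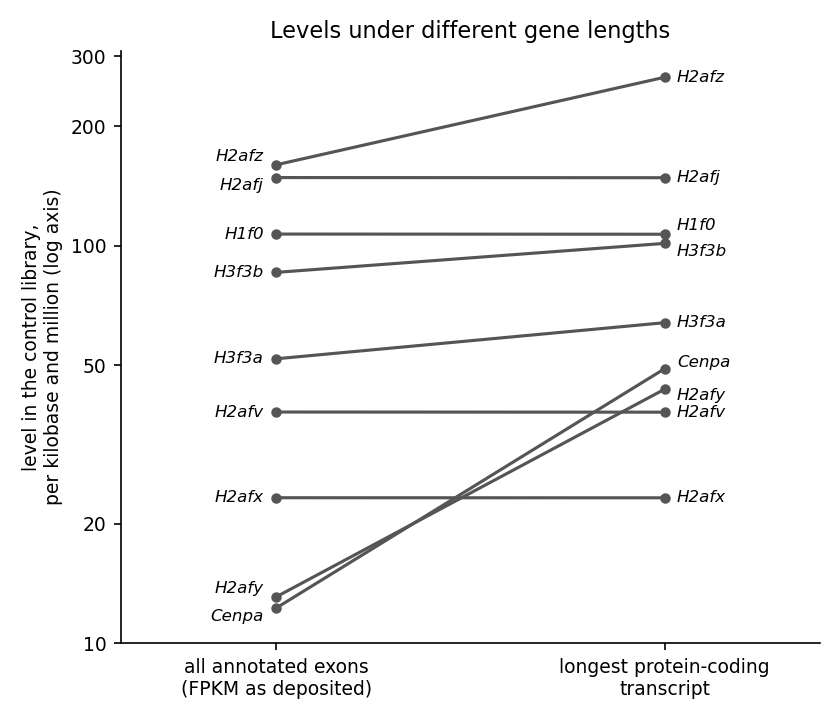
Level of each variant gene in the control library, in FPKM units on a log axis, with the length of all annotated exons (left, FPKM as deposited) and of the longest protein-coding transcript (right); each line is 1 gene. Cenpa and H2afy move from the lowest places to places 6 and 7, and the 5 highest genes keep their order.

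Most variant genes were slightly higher in the siRNA-labelled library, with no difference as large as 1.5-fold. Given as log2(FPKM + 1), the siRNA-labelled library minus the control, the differences ran from -0.04 for H2afj to 0.46 for H3f3a, with a median of 0.23 over the 9 genes. All 9 variant genes passed a filter of 1 FPKM for the mean of both libraries, and over the 10214 genes that did so the median was 0.11. Of the variant genes 8 were above 0, and of all genes 66.9% were. Among all genes 1.18% were 2-fold higher or more and 0.783% were 2-fold lower or more, while 4.91% were higher and 2.18% lower past 1.5-fold. The 2793 genes as abundant as the variant genes (mean of 13.2 to 170 FPKM, a set chosen after the values were seen) had a median of 0.03, 56.6% were above 0 and 2.97% were at least 1.5-fold higher.

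The ratio of counts per library total had a 95% exact (Clopper-Pearson) interval wholly above 1 for 7 of the 9 variant genes, against 39.4% of all genes and 35.9% of genes of like abundance. These intervals hold the error of counting alone, and PCR copies, which no molecular identifier is known to mark, can make them too narrow. For no variant gene was the interval wholly below 1, against 12.9% of all genes and 21.7% of those of like abundance. The median ratio of all genes was 1.09. The intervals of H3f3a, H3f3b, H2afy and H1f0 lay wholly above it, that of H2afj wholly below it, and those of the other 4 genes included it. The shares of all genes with intervals wholly above or below this median were not computed, so these counts have no background beside them.

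**Figure D3:**
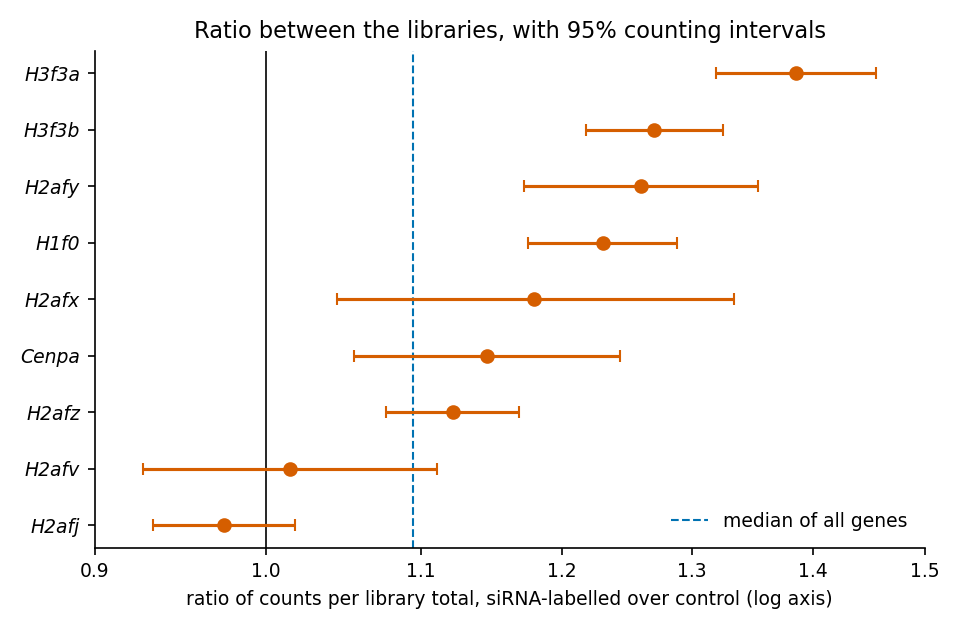
Ratio of counts per library total, siRNA-labelled over control, on a log axis for each variant gene, with 95% exact counting intervals; the solid line is a ratio of 1 and the dashed line the median of all genes (1.09). H3f3a is the highest at 1.39, and the intervals of H2afv and H2afj include 1.

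The H3.3 genes were the variant genes with the highest differences before adjustment for GC content, after which they took places 4 (H3f3a, 0.28) and 5 (H3f3b, 0.16). H3f3a (ENSMUSG00000060743, chromosome 1, 180800832 to 180813632, minus strand, as in the deposited table) had 15486 counts in the siRNA-labelled library and 11063 in the control, or 72 against 52 FPKM. Its ratio of counts was 1.39 (1.32 to 1.46), and its difference of 0.46 lay at percentile 89.8 of all genes. H3f3b (ENSMUSG00000016559, chromosome 11, 116021912 to 116027962, minus strand) had 19887 against 15500 counts, or 109 against 85.7 FPKM. The ratio was 1.27 (1.22 to 1.32), at percentile 80.1. Both H3.3 genes were thus higher in the siRNA-labelled library, and H3f3a by more than H3f3b.

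H3f3b made up 60.2% of the summed H3.3 FPKM in the siRNA-labelled library and 62.3% in the control. The level of H3f3b was 1.51 times that of H3f3a (1.45 to 1.58) in the former and 1.65 times (1.57 to 1.73) in the latter. The quotient of these ratios was 0.92 (0.86 to 0.98, a normal counting interval on the log scale). H3f3a thus took a slightly larger share in the siRNA-labelled library, by more than counting error and with no replicate to set it against.

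Reads of H3f3a can also fall on its copies and on an antisense gene. Among all genes listed, 9 pseudogenes shared at least 100 nt of transcript with H3f3a at 98% identity or more, and they held 532 against 583 counts, 3.44% and 5.27% of the counts of H3f3a. Their summed ratio was 0.90 (0.71 to 1.15), below that of H3f3a. Among them H3f3c had 146 against 205 counts, a ratio of 0.70 (0.44 to 1.09), and Gm6421 had 140 against 133. Gm17275, which lies across H3f3a on the opposite strand, had 648 against 407 counts, a ratio of 1.58 (1.22 to 2.03). The strandedness of the library is not given in the sources used here. Reads on stretches found in transcripts of both Gm17275 and H3f3a, the longest of 644 nt, therefore cannot be told apart. With the counts of all 11 sharing genes added, the ratio of H3f3a was 1.37 (1.31 to 1.44). H3f3b shared sequence with the pseudogene Gm6485 (274 against 287 counts) and with Gm43584 (5 against 4), and its summed ratio was 1.26 (1.21 to 1.32).

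The promoters of the H3.3 genes differ in composition, and both genes were higher in the same library. They are shown from 250 bases before to 50 after the start (RefSeq, GRCm38.p6, minus strand), with capitals at CCAAT read on either strand (CCAAT or ATTGG), the box bound by NF-Y that is common in histone promoters.
H3f3a, chr1:180813556-180813855: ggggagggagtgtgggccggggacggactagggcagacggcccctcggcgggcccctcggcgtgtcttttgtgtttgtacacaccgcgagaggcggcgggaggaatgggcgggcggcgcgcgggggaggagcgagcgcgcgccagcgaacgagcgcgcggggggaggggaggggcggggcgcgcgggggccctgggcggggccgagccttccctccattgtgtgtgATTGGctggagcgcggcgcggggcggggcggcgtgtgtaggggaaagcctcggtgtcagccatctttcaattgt
H3f3b, chr11:116024455-116024754: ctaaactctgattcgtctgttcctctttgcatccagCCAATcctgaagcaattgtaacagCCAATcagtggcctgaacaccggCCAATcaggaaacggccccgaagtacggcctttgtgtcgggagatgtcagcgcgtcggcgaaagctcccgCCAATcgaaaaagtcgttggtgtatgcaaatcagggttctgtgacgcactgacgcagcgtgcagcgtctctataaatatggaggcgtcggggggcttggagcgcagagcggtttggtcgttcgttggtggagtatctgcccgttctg
The H3f3b start used by RefSeq lies inside the gene as given in the deposited table. The H3f3a window was 74% GC with 1 CCAAT, and the H3f3b window 55% GC with 4 CCAAT and 1 TATAAA. RefSeq windows were matched for 8 of the 9 variant genes, all but H2afx, and 6 of these held CCAAT, against 37.4% of 32851 promoters. H2afv held 4, H2afz and H2afj 3 each and Cenpa 2, while H2afy and H1f0 had no match in their windows. The H1f0 window (79027962 to 79028261) ends before the gene as given in the deposited table begins, at 79028450. At least 3 were found in 3.37% of all promoters. TATAAA (or TTTATA) was found in H3f3b alone of the 8, against 13.6% of all promoters. TTTGAA (or TTCAAA), a form of the element known from promoters of mitotic genes, was found in Cenpa and H2afv, against 17.9% of all promoters. Such matches describe letters in these windows and do not show binding.

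The genes of H2A.Z differed in level by several fold and little between the libraries. H2afz (ENSMUSG00000037894, chromosome 3, 137864487 to 137866922, plus strand) had 19557 against 17255 counts, or 180 against 160 FPKM. Its ratio was 1.12 (1.08 to 1.17), and its difference of 0.17 lay at percentile 58.7 of all genes. H2afv (ENSMUSG00000041126, chromosome 11, 6427229 to 6444443, minus strand) had 3884 against 3787 counts, or 38.8 against 38.2 FPKM, and a ratio of 1.02 (0.93 to 1.11). H2afz was slightly higher in the siRNA-labelled library, close to a typical gene, and H2afv did not differ beyond counting error.

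H2afz supplied 82.2% of the summed H2A.Z FPKM in the siRNA-labelled library and 80.7% in the control. Its level was 4.63 times that of H2afv (4.32 to 4.96) in the former and 4.19 times (3.90 to 4.50) in the latter, and the quotient of these was 1.11 with an interval that began just above 1 and ended at 1.22. Per longest protein-coding transcript the ratios were 7.69 and 6.96. Of the transcript H2afz-201, 63.8% was also found, in the opposite orientation, in a transcript of Tmcc1, which had 1554 against 1729 counts. With all counts of Tmcc1 added, whether or not they fell on the shared 682 nt, the ratio of H2afz was 1.1 (1.06 to 1.15). H2afv shared no such sequence with another gene of the table.

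The other H2A variants had ratios from 0.97 to 1.26. H2afy (ENSMUSG00000015937, chromosome 13, 56073619 to 56135631, minus strand) had 6893 against 5418 counts, or 16.5 against 13.1 FPKM, a ratio of 1.26 (1.17 to 1.35) at percentile 77.1. An antisense gene that overlaps it, Gm47071, held 4 against 3 counts. H2afj (ENSMUSG00000060032, chromosome 6, 136808244 to 136810074, plus strand) had 16260 against 16516 counts, or 145 against 148 FPKM, a ratio of 0.97 (0.93 to 1.02) at percentile 27.7. H2afj had the lowest difference of the 9 genes before adjustment for GC content, after which it was at 0.07 and H2afv was the lowest at -0.06. Of the FPKM summed over the 5 H2A variants, H2afj made up 35.6% in the siRNA-labelled library and 38.8% in the control, second to H2afz with 44.1% and 41.8%. By FPKM H2afj was near H2afz in the control library, while per length of the longest protein-coding transcript H2afj stood at 148 and H2afz at 265.

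H2afx (ENSMUSG00000049932, chromosome 9, 44334694 to 44336077, plus strand) had 2328 against 1954 counts, or 27.4 against 23.2 FPKM, the fewest counts of the 9 genes. Its ratio was 1.18 (1.04 to 1.33), at percentile 67.2. H2afx is known for mRNAs of both kinds, a short form that ends at a histone stem-loop and a longer polyadenylated form. The stem-loop is shown because the short form ends there. Capitals mark the match, in its only annotated transcript, to the pattern searched on the transcript strand: GG, any 2 bases, CT, any 4 bases, AG, any 2 bases, CC.
H2afx: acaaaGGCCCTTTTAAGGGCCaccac
The match lay at bases 547 to 562 of the 1384 nt transcript, 47 nt past the end of the coding sequence at base 500, with 822 nt after it. No annotated transcript of the other 8 variant genes held this pattern, while 46 of the 67 clustered histone genes of the table (68.7%) did. Since the libraries were made from poly(A) RNA, an RNA that ends at the stem-loop would be collected poorly, and the share of each form was not measured here.

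H1f0 was among the more abundant and more different variant genes. H1f0 (ENSMUSG00000096210, chromosome 15, 79028450 to 79030504, plus strand) had 16610 against 13361 counts, or 132 against 107 FPKM. Its ratio was 1.23 (1.18 to 1.29), at percentile 75.4. The overlapping antisense gene Gm49544 held 0 against 3 counts. The other linker histone genes were far less abundant, except Hist1h1c, the most abundant clustered gene by the mean of both libraries, at 70.2 against 54.6 FPKM with a ratio of 1.28 (1.19 to 1.38). The clustered genes Hist1h1b (199 against 16 counts, a ratio of 12.3, 4.54 to 47.2), Hist1h1d (542 against 134 counts, 4.0, 2.70 to 5.95) and Hist1h1e (170 against 50 counts, 3.37, 1.79 to 7.23) had ratios above that of H1f0. For Hist1h1a (64 against 26 counts, 2.44, 0.98 to 8.24), the solitary H1fx (79 against 86 counts, 0.91, 0.47 to 1.73) and H1foo (17 against 8 counts, 2.10, 0.28 to 21.9) the interval included 1, and Hist1h1t was at 0 in both libraries. Of these, Hist1h1a, Hist1h1d, Hist1h1e, H1foo and Hist1h1t did not pass the filter of 1 FPKM, and they are named after their values were seen.

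Cenpa was the least abundant by FPKM. Cenpa (ENSMUSG00000029177, chromosome 5, 30666777 to 30674830, plus strand) had 5060 against 4371 counts, or 14.1 against 12.3 FPKM. The ratio was 1.15 (1.06 to 1.24), at percentile 61.2, so the gene was higher in the siRNA-labelled library by little more than a typical gene. Its longest protein-coding transcript shared no sequence with another gene, while other Cenpa transcripts shared short stretches with Ap1g1 (2858 against 2423 counts) and Glcci1 (15 against 12).

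The GC content of the transcript moved with the difference across all genes, and the order of the variant genes changed when it was taken into account. Across genes, which are not independent replicates, Spearman's rho between GC content and difference was -0.46. H3f3a and H3f3b, with 43.2% and 43.4% GC in their longest transcripts, had the highest unadjusted differences, and genes within 2 percentage points of their GC had medians of 0.29 each. H2afx, with 62.3% GC, differed by 0.23, while 307 genes of like GC had a median of -0.01. H2afy (50.9% GC) and H1f0 (52.1% GC) differed by 0.31 and 0.30, against medians of 0.07 and 0.05. Cenpa and H2afz differed by 0.18 and 0.17, against medians of 0.14 and 0.15. H2afv, at 0.02, stood below the median of 0.19 for its GC content, and H2afj, at -0.04, below one of 0.0059.

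After adjustment for GC content by lowess, the highest differences were those of H2afx (0.36), H1f0 (0.36) and H2afy (0.35), then H3f3a (0.28) and H3f3b (0.16). Cenpa (0.15), H2afz (0.12), H2afj (0.07) and H2afv (-0.06) followed. The median of the 9 genes was 0.16, against 0.11 for all genes. For H2afy and Cenpa the longest annotated transcript retains introns, so their GC content is approximate.

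**Figure D4:**
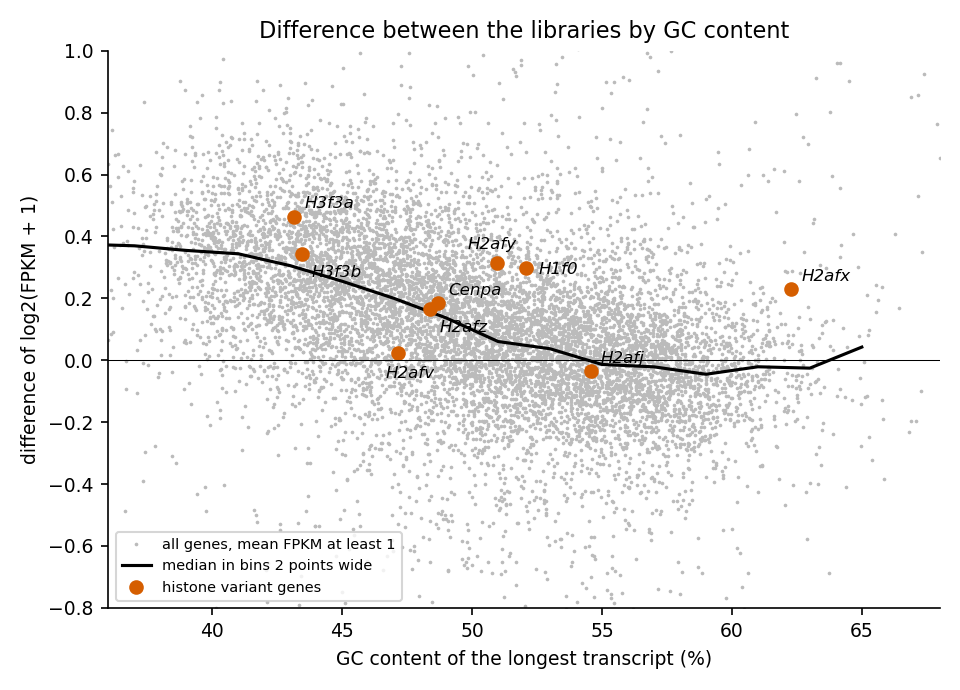
Difference between the libraries (siRNA-labelled minus control, log2(FPKM + 1)) against the GC content of the longest transcript in percent; grey points are genes that passed the filter of 1 FPKM (323 lie beyond the axes), the line their median in bins 2 points wide, orange points the 9 variant genes. H3f3a and H3f3b sit where most genes are above 0, and H2afx, H2afy and H1f0 sit above the line by more.

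The partners that place and remove the variants were compared on the same scale. None of the lists that follow was tested, and no member of them was past 2-fold on the log2(FPKM + 1) scale except among clustered histone genes. Of 13 genes for H2A.Z deposition and removal, 11 were above 0, against 66.9% of all genes, with a median difference of 0.16. Anp32e, a chaperone that removes H2A.Z, stood at 37.9 against 25.1 FPKM with a ratio of 1.51 (1.41 to 1.61), and Actl6a, a subunit of remodelling complexes, at 8.0 against 5.34 FPKM (1.5, 1.29 to 1.73). Ruvbl2, the most abundant member and an ATPase shared by these complexes, stood at 68.8 against 68.3 FPKM (1.01, 0.96 to 1.06). Anp32e and Actl6a are named for having the largest differences of this list, while its median of 0.16 was close to the difference of H2afz, 0.17. The most abundant member showed no difference beyond counting error.

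Of 6 measured H3.3 chaperone genes 5 were above 0, against 66.9% of all genes, with a median of 0.20. Asf1a, which hands H3 and H4 to other chaperones, stood at 3.52 against 1.82 FPKM (1.93, 1.51 to 2.48) and Dek at 6.89 against 4.05 FPKM (1.70, 1.43 to 2.05). Both were at least 1.5-fold higher, as were 4.91% of all genes. Daxx, which deposits H3.3 at telomeres and repeats, stood at 9.54 against 8.09 FPKM (1.18, 1.03 to 1.35). Cabin1, a subunit of the HIRA complex, was the member below 0, with 2994 against 3687 counts (0.80, 0.73 to 0.89), and it is named here after its value was seen. Ubn2 and Atrx did not pass the filter of 1 FPKM.

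The list for CENP-A deposition and the base of the kinetochore had a median of 0.40 over 10 measured genes, and of 0.25 after adjustment for GC content. Above 0 were 9 of the 10, against 66.9% of all genes. Oip5, Cenpc1 and Cenpi were below 1 FPKM in the control (0.99, 0.87 and 0.74). They passed the filter only through the siRNA-labelled library (2.23, 1.61 and 1.42), so this median and share depend in part on the filter. With no minimum on FPKM the median was 0.31. Oip5, a part of the complex that licenses CENP-A loading, stood at 2.23 against 0.99 FPKM, from 244 and 107 counts (2.26, 1.4 to 3.66). Cenph stood at 4.17 against 2.51 FPKM (1.66, 1.22 to 2.27) and Cenpm at 15.3 against 15.6 FPKM (0.99, 0.85 to 1.14). Hjurp, the chaperone of CENP-A, had 7524 against 6760 counts (1.1, 1.03 to 1.18) and is named after its value was seen. Cenpa at 0.18 was below the median of this list, close to Hjurp at 0.13.

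Of 10 kinases, phosphatases and readers that act on H2A.X, 6 passed the filter of 1 FPKM, with a median of 0.15. All 6 were above 0, against 66.9% of all genes. Atm, Atr, Prkdc and Rnf8 did not pass it. Of these, Rnf8 was lower in the siRNA-labelled library, with 489 against 537 counts (0.90, 0.70 to 1.16), while Atm, Atr and Prkdc were higher. Baz1b, a kinase of the tyrosine at the end of H2A.X, stood at 5.21 against 3.91 FPKM (1.33, 1.21 to 1.46) and Ppp4c, a phosphatase, at 26.0 against 21.4 FPKM (1.22, 1.13 to 1.31). The list of 12 general and replication-coupled histone chaperones had a median of 0.28 with 10 above 0, against 66.9% of all genes. In it Npm1, a nucleolar chaperone, stood at 331 against 240 FPKM (1.38, 1.35 to 1.42), Set at 92.6 against 62.8 FPKM (1.47, 1.42 to 1.54) and Nasp, a carrier of H3 and H1, at 5.15 against 3.10 FPKM (1.66, 1.45 to 1.90). Ssrp1, at 56.6 against 62.3 FPKM (0.91, 0.86 to 0.95), and Chaf1b (0.94, 0.84 to 1.06) were the members below 0. They are named after their values were seen.

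Clustered histone genes, whose mRNAs mostly lack a poly(A) tail and would be collected poorly in these poly(A) libraries, differed by more. Of 37 measured, 34 were above 0 (66.9% of all genes were), 24 were at least 1.5-fold higher (4.91% of all genes) and 12 at least 2-fold higher (1.18%), with a median of 0.76. Together the 67 genes held 20216 against 12399 counts, and for 23 of the 37 the counting interval lay wholly above 1, against 39.4% of all genes. The 2 largest differences were those of Hist1h1b, given above, and Hist2h3c1, with 266 against 6 counts (43.9, 8.69 to 275). Both were below 1 FPKM in the control (0.33 and 0.04) and passed the filter only through the siRNA-labelled library (4.36 and 2.37). The same held for other clustered genes, such as Hist1h2ad (2.95 against 0.42 FPKM), so these shares depend in part on the filter. With no minimum on FPKM the median of clustered genes was 0.70. Genes of mitosis had a median of 0.34 over 10, with 9 above 0 and Aurka below it (0.96, 0.89 to 1.04). Among them Bub1 stood at 6.55 against 3.85 FPKM, Top2a at 13.7 against 9.52 FPKM and Cdc20 at 70.4 against 66.5 FPKM (1.06, 0.99 to 1.13). S phase genes had a median of 0.19 over 11, with 9 above 0 and 2 below it. Among them Slbp, which binds the histone stem-loop, stood at 3.62 against 2.20 FPKM. Mcm4 stood at 12.7 against 8.89 FPKM and Pcna at 85.4 against 74.9 FPKM. The members below 0 were Mcm2, with a ratio of 0.94, and Tyms, with 0.95. Both had intervals that included 1, and they are named after their values were seen. The median of the 9 variant genes, 0.23, lay between those of the S phase and mitosis genes. Of other solitary histone genes H3f3c and H1fx passed the filter, and H1foo, H2afy2 and H2afy3 did not.

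**Figure D5:**
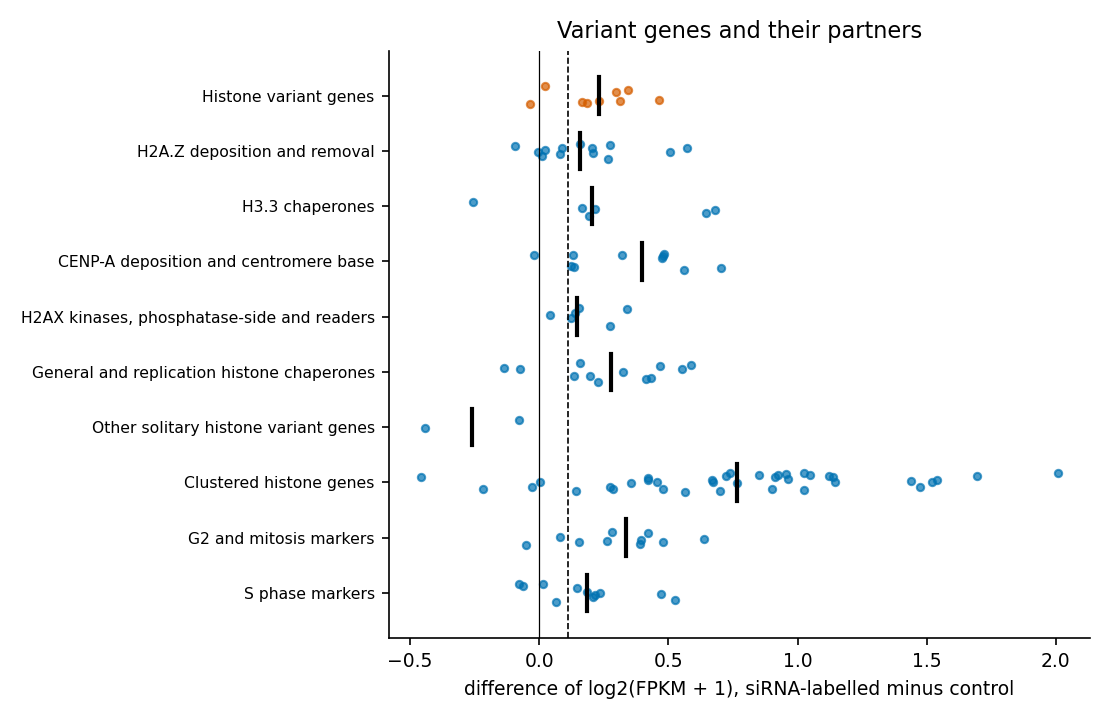
Difference between the libraries (siRNA-labelled minus control, log2(FPKM + 1)) of each gene that passed the filter of 1 FPKM, by list; black bars are medians, the solid line is 0 and the dashed line the median of all genes (0.11). The variant genes lie between -0.04 and 0.46, while 12 clustered histone genes reach 1 or more, some of them from below 1 FPKM in the control.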

How the data were processed

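Gene-level values of 2 poly(A) RNA libraries were used, grouped by treatment. HISAT2 2.0 and StringTie 1.3.0 are listed in the submitters' processing notes. Genome build, annotation and strand setting: not given in the sources used here. The deposited coordinates of 7 of the 9 genes are identical to those of GENCODE vM21 (GRCm38), which served for transcripts, exon lengths and GC content. FPKM, so named in the file headers, had been scaled by the authors for length and library size before they were deposited. Counts as deposited by the authors were treated as estimated counts, and 45.1% and 42.7% of those from 1 to 20 are multiples of 4. From this, 1 read pair was taken as 4 counts, and counts were divided by 4 for intervals. Sums of counts were 55411201 and 54847367, and precision follows from the counts of each gene. Columns were matched by title, and 0 columns of values were left over.

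The measure was the difference of log2(FPKM + 1) over genes that reached 1 FPKM on average. The pseudocount makes differences of low genes smaller. No test was possible without replicates. The members and lists were chosen with earlier results of these data known. Named were all 9 members, the 2 largest differences and the most abundant gene of each list, and up to 3 sharing genes per member. Sharing was found with blastn 2.17.0 (98% identity, 100 nt). GC adjustment used lowess with a span of 0.3. Alternatives were pseudocounts, filters, fold limits, scalings, the GC adjustment, added counts of sharing genes and transcript length. The procedure was tested on simulated data. These were Poisson counts drawn with the same unit of 4 counts per read pair that the intervals assume. The test therefore checked neither that unit nor any error beyond counting. Software was Python 3.11.15 with matplotlib 3.10.9, statsmodels 0.14.6, scipy 1.17.1, numpy 2.4.6 and pandas 2.3.3.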

Additional observations from a re-analysis of the deposited data

How the results depend on the processing

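No variant gene was past 1.5-fold under any of the 9 settings of scale, pseudocount, centring, GC content or added counts. Between 7 and 9 of the 9 genes were above 0, with medians from 0.12 (centred on the median of all genes) to 0.28 (FPKM rescaled to equal sums). Of all genes 66.9% were above 0 as reported, and this share was not computed for the other settings. Centring and rescaling shift all genes, so the range does not describe the variant genes alone. H2afj was above 0 after rescaling (0.01) and after GC adjustment (0.07), and H2afv was below 0 after GC adjustment (-0.06), when centred on all genes (-0.09) and when centred on genes of like abundance (-0.01). The numbers of all genes past the limit, 121 higher and 80 lower, became 232 and 134 with a pseudocount of 0.1, 35 and 36 with a pseudocount of 5, 501 and 223 at 1.5-fold, and 47 and 50 with a filter of 5 FPKM, because such settings admit or remove low genes or smaller differences. No variant gene was past the limit in any of these. Per list, the median for CENP-A deposition was 0.31 with no minimum on FPKM and 0.25 adjusted for GC content, that for H2A.X partners 0.20 in counts, that for other solitary genes 0.077 with no minimum against -0.26, and that for clustered genes 0.63 in counts and 0.87 adjusted for GC content; the cause was not tested. With all counts of sharing genes added, from the shared stretch or not, the ratio of H2afz to H2afv was 5.00 with the siRNA label and 4.61 in the control. That of H3f3b to H3f3a was 1.42 and 1.54. By longest protein-coding transcript H2afz to H2afv was 7.69 and 6.96, owing to its shorter length. No paired analysis was possible because each group has 1 library, and for the same reason no library could be left out. Depth limits H2afx most, from 1954 control counts.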
